A study of Homo sapiens with 2 samples.

Results

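The guanylate-binding proteins (GBPs) are a family of 7 human interferon-induced GTPases, GBP1 to GBP7, whose genes form a cluster on chromosome 1. They were found by gene symbol in both deposited tables, so 7 of 26506 genes are described here. The family was chosen with its ratios between the media already known, and those ratios are given as a description. Poly(A) RNA was sequenced from an established line of human corneal epithelial cells (ATCC CRL-11515) after 72 hours of culture in either of 2 media. The special medium (SP) was DMEM/F12 supplemented with calcium chloride (1 mM), EGF (10 ng/mL), fetal bovine serum (10%) and an antibiotic/antimycotic. The comparison medium was keratinocyte serum-free medium (KSFM). Each medium is represented by 1 library, made from the combined RNA of 3 independent cultures, so no difference has a replicate check and no p-value is given.

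GBPs are large GTPases of the dynamin superfamily that are strongly induced by interferon-gamma and, to a lesser degree, by type I interferons and inflammatory cytokines. In human epithelial cells infected with cytosolic bacteria, GBP1 coats the bacterial surface, GBP2, GBP3 and GBP4 are recruited after it, and the coat becomes a platform for the lipopolysaccharide-sensing protease caspase-4. GBP1, GBP2 and GBP5 carry a C-terminal CAAX box to which a lipid is attached, which lets them bind membranes. GBP5 resides at the Golgi apparatus and, with GBP2, inhibits the protease furin and thereby the maturation of viral envelope proteins.

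The cluster spans 380 kb of GRCh38, from position 89006666 to 89386461 of chromosome 1 in GENCODE release 29 gene bounds. GBP3 (ENSG00000117226) lies at 89006666 to 89022894, GBP1 (ENSG00000117228) at 89052319 to 89065360, and GBP2 (ENSG00000162645) at 89106132 to 89150456. GBP7 (ENSG00000213512) follows at 89131751 to 89176040 and overlaps the bounds of GBP2. GBP4 (ENSG00000162654) lies at 89181148 to 89198932 and GBP5 (ENSG00000154451) at 89258950 to 89272804. These 6 genes are on the minus strand, and GBP6 (ENSG00000183347), at 89364058 to 89386461, is on the plus strand.

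Promoter windows, from 250 bases before to 50 bases into the transcript, were taken from RefSeq (GRCh38.p14), where 5 of the 7 members (GBP1, GBP3, GBP4, GBP6 and GBP7) were matched. GBP1, GBP3 and GBP4 are shown because they were higher in SP and because each holds a match to the interferon-stimulated response element, searched on both strands as TTTC, any 2 bases and TTTC. GBP7 is shown as the member with a count of 0 and no match to that element. GBP6 is not shown. It was also called higher in SP, on 19 and 2 counts, and its window holds no match to that element. The windows shown therefore do not pair the element with the ratios across all matched members. Capitals mark that element and, in GBP3, the gamma-activated sequence TTCNNNGAA. All 4 genes are on the minus strand, and each window reads in the direction of transcription. The windows are chr1:89065159-89065458 for GBP1, chr1:89022817-89023116 for GBP3, chr1:89198893-89199192 for GBP4 and chr1:89175954-89176253 for GBP7.
GBP1: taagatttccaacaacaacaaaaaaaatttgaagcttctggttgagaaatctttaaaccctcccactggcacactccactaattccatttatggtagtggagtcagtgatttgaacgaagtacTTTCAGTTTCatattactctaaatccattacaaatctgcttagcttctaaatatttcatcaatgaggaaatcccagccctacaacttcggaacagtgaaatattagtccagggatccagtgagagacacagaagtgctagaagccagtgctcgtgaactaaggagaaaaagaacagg
GBP3: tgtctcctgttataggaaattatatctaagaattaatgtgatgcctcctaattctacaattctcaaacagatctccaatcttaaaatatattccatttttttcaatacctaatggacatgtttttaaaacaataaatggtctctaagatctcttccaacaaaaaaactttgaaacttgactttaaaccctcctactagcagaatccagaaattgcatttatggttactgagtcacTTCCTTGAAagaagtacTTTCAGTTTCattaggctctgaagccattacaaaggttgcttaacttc
GBP4: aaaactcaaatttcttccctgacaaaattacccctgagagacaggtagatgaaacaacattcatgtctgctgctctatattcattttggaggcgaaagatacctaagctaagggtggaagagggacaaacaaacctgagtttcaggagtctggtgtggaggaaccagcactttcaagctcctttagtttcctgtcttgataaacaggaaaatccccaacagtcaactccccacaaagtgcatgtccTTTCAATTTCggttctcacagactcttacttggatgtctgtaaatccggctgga
GBP7: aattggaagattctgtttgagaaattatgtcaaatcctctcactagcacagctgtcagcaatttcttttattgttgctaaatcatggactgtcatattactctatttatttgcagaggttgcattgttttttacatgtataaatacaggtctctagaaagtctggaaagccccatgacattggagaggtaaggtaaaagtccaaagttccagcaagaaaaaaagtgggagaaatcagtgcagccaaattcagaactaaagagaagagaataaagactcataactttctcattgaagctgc

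The interferon-stimulated response element is bound by IRF transcription factors. Its letters occurred in 3 of the 5 member windows and in 3.57% of all 35116 promoter windows of the same length. GBP2 and GBP5, the members with the largest and the lowest ratio, had no matched window. Relative to the RefSeq start, the match begins 127 bases before it in GBP1, 4 bases before it in GBP4, and at base 3 of the transcript in GBP3. The GENCODE bounds above place the starts of GBP1 (89065360) and GBP3 (89022894) further upstream. By those bounds the marked matches of GBP1 and GBP3 lie inside the gene. The GBP1 and GBP3 windows share an unbroken run of 19 bases, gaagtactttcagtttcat, that contains the match. The gamma-activated sequence was found in 1 of the 5 windows (GBP3, 15 bases before the RefSeq start) and in 7.66% of all windows. An NF-kB-like motif, GGG, any 3 bases and TTCC, was found in GBP4 and GBP7 and in 6.52% of all windows, without overlapping the other motifs. These matches describe the letters in the windows and do not show that any factor binds there.

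The libraries held 16900472 rounded counts in SP and 21604652 in KSFM. CPM values are counts scaled to library size with TMM factors, and TPM values, as deposited, also adjust for transcript length. Each ratio sets SP over KSFM and is followed in parentheses by its exact 95% interval, which covers counting error only. A call required 1 CPM or more in one of the libraries, a difference of 2-fold or more, and an interval that leaves out equality. Of 13632 genes at 1 CPM or more, 9.86% were called higher in SP and 6.77% lower. Higher genes made up 59.3% of the calls on counts and 78.4% (1266 higher and 349 lower) on TPM with a pseudocount of 1.

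GBP1 to GBP4 and GBP6 were higher in SP, GBP5 was lower by less than the 2-fold rule, and GBP7 had a count of 0 in both. By that rule 5 of the 6 members at 1 CPM or more were called higher, against the background of 9.86%, and 0 were called lower, against 6.77%. GBP2 and GBP6 passed the filter through SP alone. Because the family was chosen on this contrast, nothing is read from that count. The median log2 ratio of the 6 measured members was 3.51, beside 0.00 over all genes tested.

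GBP1, the member that initiates the coat on bacteria, had 51.7 TPM in SP and 4.33 TPM in KSFM, on 1252 and 150 counts. Its ratio was 10.6-fold (8.98 to 12.7). GBP3, which joins that coat, was the most abundant member per length in both media, at 75.2 TPM in SP and 9.03 TPM in KSFM, on 1816 and 312 counts. It was 7.42-fold higher in SP (6.58 to 8.40), the smallest ratio among the 5 members called higher.

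GBP2, which acts both on bacteria and on furin, had 19.0 TPM in SP and 0.38 TPM in KSFM, on 630 and 18 counts. At 44.6-fold (28.0 to 75.8) it had the largest ratio of the family. GBP4, another member recruited to the bacterial coat, had 7.79 TPM in SP and 0.34 TPM in KSFM, on 389 and 24 counts. Its ratio was 20.7-fold (13.7 to 32.7), and the intervals of GBP2 and GBP4 overlap, while those of GBP3, GBP1 and GBP4 do not overlap one another. The 2 members with the largest ratios were thus scarce in KSFM, below the level of GBP1, GBP3 and GBP5 there.

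GBP5, the Golgi-resident furin inhibitor, ran the other way. It had 3.39 TPM in SP and 5.36 TPM in KSFM, on 110 and 244 counts, and was 1.74-fold lower in SP (1.38 to 2.20). The interval excludes equality, but the ratio falls short of 2-fold, so GBP5 was not called lower. Its log2 ratio of -0.80 lies below those of the other 5 measured members, which ran from 2.89 to 5.48, and its interval overlaps none of theirs.

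GBP6 was near the detection limit, with 0.48 TPM in SP and 0.04 TPM in KSFM. It rested on 19 and 2 counts, so its 12.1-fold ratio (2.92 to 107) is poorly bounded. GBP7 had 0 counts in both libraries, which allows up to 0.177 CPM in SP and 0.139 CPM in KSFM (3 counts each), and no fold is given for it. The pseudogene GBP1P1, next to GBP6, had 6 and 2 counts, below 1 CPM in both libraries.

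**Figure D1:**
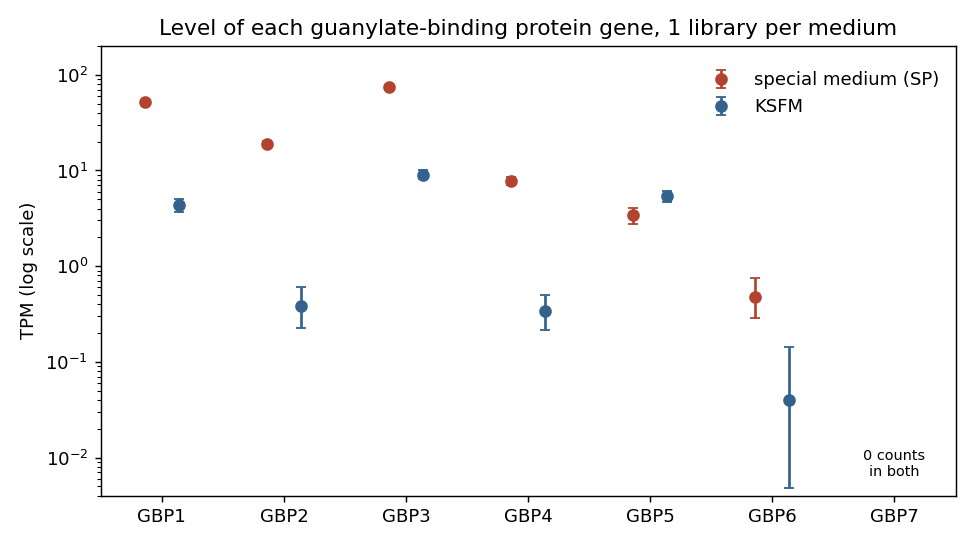
Deposited TPM on a log scale for each GBP gene in SP (left point) and KSFM (right point), with exact 95% Poisson intervals for counting error and 1 library per medium. GBP1, GBP2, GBP3, GBP4 and GBP6 lie higher in SP, GBP5 lies higher in KSFM (3.39 TPM in SP against 5.36 TPM), and GBP7 has 0 counts in both.

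**Figure D2:**
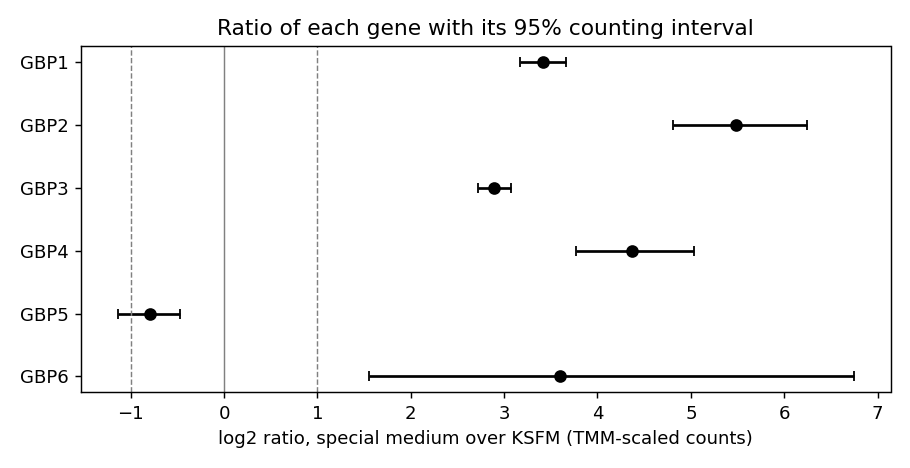
Log2 ratio of SP over KSFM for the 6 GBP genes with counts, with exact 95% counting intervals. Dashed lines mark 2-fold in each direction, and GBP5, at -0.80, is the one point below 0.

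The order of levels per length differed between the media. In SP it was GBP3, GBP1, GBP2, GBP4, GBP5 and GBP6, and each neighbouring pair differed beyond counting error. The closest SP pair was GBP3 and GBP1, with a TPM ratio of 1.46 (1.35 to 1.57). In KSFM the order was GBP3, GBP5, GBP1, GBP2, GBP4 and GBP6. GBP5 over GBP1 in KSFM was 1.24 (1.01 to 1.53), and GBP2 over GBP4 was 1.13 (0.576 to 2.16), so the order of that last pair was not resolved at this depth.

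Summed over the 7 members, the family held 157.6 TPM in SP and 19.5 TPM in KSFM, a ratio of 8.09. Without GBP5 the sums were 154.2 TPM in SP and 14.1 TPM in KSFM, a ratio of 10.9. GBP5 made up 2.15% of the family's TPM in SP and 27.5% in KSFM. GBP2 made up 12.04% in SP and 1.95% in KSFM, whereas GBP3 held a similar share in both, 47.7% in SP and 46.4% in KSFM. In the order of all 13632 genes by TPM, GBP3 ranked 2518th in SP and 8954th in KSFM, and GBP1 3570th in SP and 10623rd in KSFM.

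GBP genes are close relatives, so shared sequence was counted in the annotated GENCODE transcripts as stretches of 50 bases found in another member or in GBP1P1. GBP5 and GBP6 shared 0 such stretches. For GBP4 the share was 0.309%, for GBP3 4.40%, for GBP1 9.62% and for GBP2 10.2%. Most of the GBP2 overlap was with GBP7 (573 of 640 shared stretches), whose gene bounds overlap. GBP7 had the largest share, 24.0%, nearly all with GBP2. The deposited values are estimated counts, so the counts of GBP2 and the 0 of GBP7 both depend on how reads in that shared sequence were assigned, which was not tested. Deposited counts carried fractions for GBP4 and GBP5 in both libraries, GBP1 and GBP3 in SP alone, and GBP6 in KSFM alone. Those of GBP2 were whole. For GBP5 they were 110.16 in SP and 243.88 in KSFM, although it shared 0 stretches with the family. With stretches of 100 bases, GBP3, GBP4, GBP5 and GBP6 shared 0, GBP1 shared 1.09%, GBP2 8.42% and GBP7 21.3%. The sources used here do not give the read length. Antisense genes are annotated across the 5′ end of GBP4 and within GBP5. The kit was stranded, but the strand setting of the counting is not given, so reads from those antisense genes cannot be told apart from the GBP counts.

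Of 9 listed neighbours on chromosome 1, 0 were called higher and 0 lower, with a median log2 ratio of 0.05. Over all genes at 1 CPM or more, 9.86% were called higher and 6.77% lower. These shares are the background for this and every later list count. In a list this small, 0 calls is near that background. KYAT3 and RBMXL1, which adjoin GBP3, had log2 ratios of -0.31 and -0.20. On the far side LRRC8B, LRRC8C and LRRC8D, subunits of volume-regulated anion channels, had log2 ratios of -0.28, -0.98 and 0.54. GBP5 lies between GBP4 and GBP6, so its lower value stood within the cluster and not at its edge.

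Interferons, the ligands that induce GBPs, were scarce in both libraries. IFNG, which encodes interferon-gamma, had 0 counts in SP and 0 in KSFM, and 6 of the 10 listed ligands had 0 counts in both. IFNL1, a type III interferon, was the one ligand at 1 CPM or more, and it passed that filter through SP alone. It had 20 counts in SP and 2 in KSFM and a ratio of 12.8-fold (3.10 to 113). IFNB1 had 1 count in SP and 0 in KSFM, and IFNE had 11 in SP and 4 in KSFM.

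Of the receptor genes, 0 of 6 were called in either direction, with a median log2 ratio of 0.17. Over all genes, 9.86% were called higher and 6.77% lower, so 0 of 6 is near the background. The interferon-gamma receptor chains IFNGR1 and IFNGR2 had log2 ratios of 0.06 and 0.22, and IFNLR1, the specific chain of the type III receptor, had -0.29.

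Among 14 measured genes of JAK-STAT-IRF signalling, 4 were called higher and 0 lower, with a median log2 ratio of 0.46. IRF1, a transcription factor that drives GBP promoters, had 83.5 TPM in SP and 12.9 TPM in KSFM and was 5.76-fold higher (5.24 to 6.35). IRF9, another factor of the IRF family, was 3.09-fold higher (2.71 to 3.53), IRF2 2.26-fold (1.995 to 2.56) and the feedback inhibitor SOCS3 2.42-fold (2.08 to 2.83). The kinases JAK1, JAK2 and TYK2 had log2 ratios of 0.50, 0.39 and -0.42, and IRF7 had 0 counts in both libraries.

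Cytokines of the TNF and interleukin-1 branch can also induce GBPs, and 7 of 11 measured genes in that list were called higher and 0 lower (median log2 ratio 1.30). IL1B had 75.6 TPM in SP and 9.59 TPM in KSFM, and IL1A 54.4 TPM in SP and 14.7 TPM in KSFM. The NF-kB feedback gene TNFAIP3 was 3.90-fold higher (3.39 to 4.51) and the subunit gene RELB 3.09-fold (2.72 to 3.50). The 4 measured genes not called were the NF-kB subunit genes RELA and NFKB1 and the receptor genes TNFRSF1A and IL1R1. Their log2 ratios were 0.26, 0.43, 0.48 and 0.71. TNF had 10 counts in SP and 0 in KSFM.

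Other interferon-induced genes give the family its context. In the interferon-gamma-induced list 12 of 18 measured genes were called higher and 1 lower, with a median log2 ratio of 1.38 (CXCL10 with its count of 0 set to 3). The largest ratios were those of the chemokines CXCL11 (20.4-fold, 7.59 to 77.2) and CXCL10, with 48 counts in SP and 0 in KSFM. With the KSFM count of CXCL10 set to a floor of 3, its ratio was 20.4-fold, and its exact 95% lower bound was 16.0. IRF1, which is in both lists, and the class II chaperone CD74 (5.58-fold, 2.54 to 13.9) followed. CXCL10, CXCL11, CD74 and another gene called higher passed the filter through SP alone. Such genes could enter the list only with a higher value in SP, so its count and median are a description. IDO1, a tryptophan-degrading enzyme, was the gene called lower, with 19 counts in SP and 50 in KSFM and a ratio of 2.06-fold (1.20 to 3.71), although it was not called lower on TPM. In the type I list 16 of 19 were called higher and 0 lower, with a median log2 ratio of 2.73. OAS2 (30.6-fold, 15.2 to 71.9) and IFI44L (27.4-fold, 15.0 to 55.6), both antiviral genes, had the largest ratios. They rested on 8 and 11 counts in KSFM and passed the filter through SP alone. ISG15, a ubiquitin-like modifier also listed among the GBP partners, was 1.67-fold lower (1.56 to 1.80) and, like GBP5, not called.

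Of 13 measured genes of the dynamin, atlastin and related families, 2 were called higher and 0 lower (median log2 ratio 0.07). The background over all genes was 9.86% higher and 6.77% lower. These were the antiviral dynamin-like genes MX1 (5.14-fold, 4.54 to 5.84) and MX2 (8.99-fold, 7.16 to 11.4). Both are also among the genes called higher in the type I list, so they are not a separate result. The atlastins ATL2 and ATL3, membrane-fusing GTPases structurally close to GBPs, had log2 ratios of 0.07 and 0.31, and the dynamins DNM1 and DNM2 0.71 and 0.89. The member ratios lie on both sides of that of MX2: GBP3, at 7.42-fold, was below it, GBP2 and GBP4 were above it with intervals that do not overlap, and the intervals of GBP1, GBP3 and GBP6 overlap it.

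Of the genes for enzymes that attach the lipid of CAAX proteins or trim their ends, 1 of 6 was called higher and 0 lower (median log2 ratio 0.07). Beside the background of 9.86% higher and 6.77% lower, nothing is read from that count. FNTB, the catalytic subunit of farnesyltransferase, which modifies GBP1, was 2.24-fold higher (1.88 to 2.67) on partly fractional counts. PGGT1B, of the type I enzyme that adds a geranylgeranyl lipid to GBP2 and GBP5, had a log2 ratio of 0.12, and FNTA, shared by both enzymes, -0.06.

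Of 6 measured inflammasome genes 3 were called higher and 0 lower (median log2 ratio 0.91). CASP4, the protease recruited to the GBP coat, had 332.4 TPM in SP and 126.7 TPM in KSFM and was 2.29-fold higher (2.16 to 2.43). CASP1 was 4.54-fold higher (3.71 to 5.59) and the sensor gene NLRP3 3.88-fold (2.79 to 5.47). The pore-forming substrate GSDMD had a log2 ratio of -0.03, and CASP5, the adaptor gene PYCARD and NLRC4 had 0 counts in both libraries.

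Among 16 measured GBP partners 6 were called higher and 0 lower (median log2 ratio 0.71). APOL3, an apolipoprotein L that acts with GBP1 against cytosolic bacteria, was 5.86-fold higher (4.80 to 7.20) and its relative APOL1 6.90-fold (6.16 to 7.75). SFN, a 14-3-3 protein that binds phosphorylated GBP1, was 5.42-fold higher (5.11 to 5.76), while PIM1, the kinase that phosphorylates GBP1, had a log2 ratio of 0.62. The other listed 14-3-3 genes, YWHAB and YWHAZ, had log2 ratios of 0.08 and 0.37 and were not called. FURIN, the protease that GBP2 and GBP5 inhibit, had 51.6 TPM in SP and 34.8 TPM in KSFM, a log2 ratio of 0.41 on counts.

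**Figure D3:**
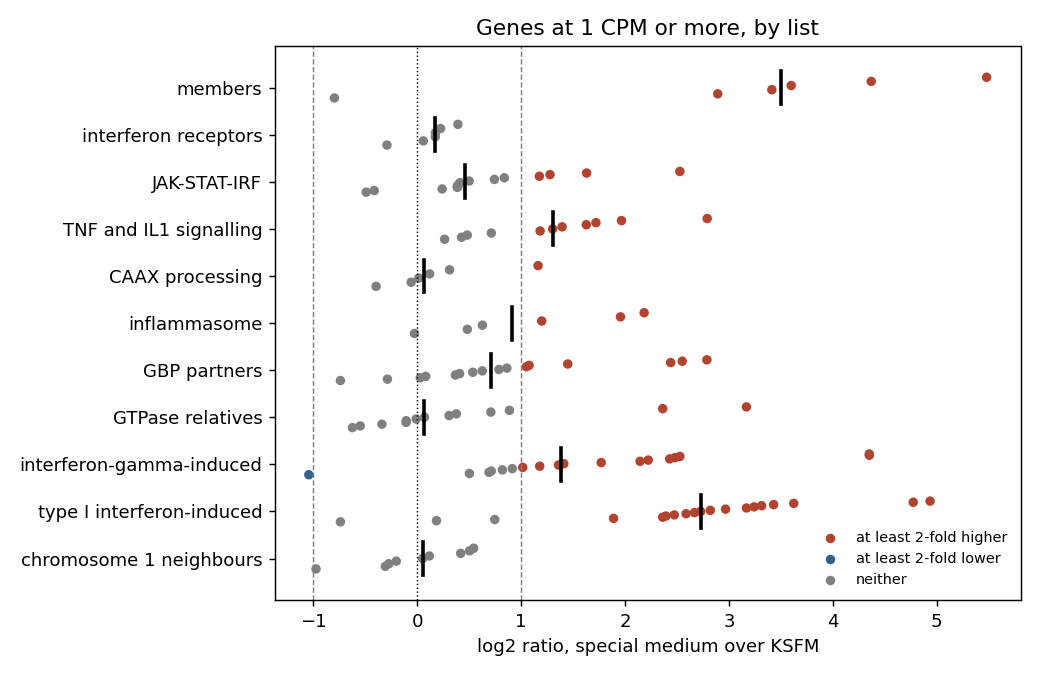
Log2 ratio of SP over KSFM for genes at 1 CPM or more in 10 gene lists and the GBP members, each point 1 gene, with black bars at list medians, dashed lines at 2-fold and a dotted line at the all-gene median. Receptors, CAAX enzymes and chromosome 1 neighbours centre near 0 (medians 0.17, 0.07 and 0.05) and the type I list near 2.73. CXCL10 is drawn with its KSFM count of 0 set to 3.

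Nearest to GBP3 over the pair of libraries, by distance of log2(CPM + 0.5), were TM4SF1 (0.088), HERC5 (0.214) and APOL1 (0.219). Nearest to GBP1 were TRIM16L (0.170), IFITM1 (0.274) and MMP2 (0.364). With 1 library per medium this likeness rests on a pair of values per gene.

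Markers of the labelled cell type were mixed. Of 8 corneal epithelium markers 4 were at 1 CPM or more, with 0 called higher and 0 lower. These were EPCAM, CDH1, KRT5 and PAX6, the last at 73 counts in SP and 69 in KSFM. Below 1 CPM were KRT14, with 10 counts in SP and 4 in KSFM, and TP63, with 13 in SP and 5 in KSFM. The corneal keratin KRT12 was at 0 in both libraries, and KRT3 had 1 count in SP and 0 in KSFM. Endothelial cells and leukocytes also express GBPs, so their markers were read beside the family. Of 8 endothelial markers 2 were at 1 CPM or more, and both were called higher: CDH5, with 236 counts in SP and 3 in KSFM, and ROBO4, with 79 in SP and 43 in KSFM (2.34-fold, 1.60 to 3.48). PECAM1, below 1 CPM, had 15 counts in SP and 2 in KSFM, VWF had 2 in SP and 6 in KSFM, KDR had 10 in each, CLDN5 had 1 in SP and 0 in KSFM, and TEK and EMCN were at 0 in both. The endothelial list summed to 10.4 TPM in SP and 1.28 TPM in KSFM. Of 8 immune markers 4 were at 1 CPM or more, with 1 called higher and 1 lower, and the list summed to 78.5 TPM in SP and 64.3 TPM in KSFM, mostly CD68. CD14, the one called higher, had 62 counts in SP and 2 in KSFM, and LYZ, the one called lower, had 11 in SP and 48 in KSFM (3.42-fold, 1.75 to 7.31). CSF1R had 45 counts in SP and 78 in KSFM, PTPRC, the pan-leukocyte marker, had 0 in SP and 1 in KSFM, and CD3E, MS4A1 and CD163 were at 0 in both. Of 8 fibroblast markers 2 were at 1 CPM or more, with 1 called higher and 0 lower, and the list summed to 15.7 TPM in SP and 5.74 TPM in KSFM. FAP, with 278 counts in SP and 100 in KSFM, was 3.55-fold higher (2.81 to 4.50) and held 12.6 TPM in SP and 3.17 TPM in KSFM. COL1A1 had 143 counts in SP and 166 in KSFM, and LUM, THY1 and KERA were at 0 in both. CDH5 and CD14 passed the filter through SP alone, and LYZ through KSFM alone. The part of these markers in the GBP ratios was not tested. In pooled bulk RNA, more cells expressing a GBP gene and more RNA per cell cannot be told apart.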

How the data were processed

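The authors deposited estimated counts per gene and TPM values for 26506 genes by symbol, with 1 pooled library per medium. The submitters' processing notes name HISAT2 2.1.0 and RSEM, with GRCh38, and also fastp 0.20.0 and FastQC 0.11.9. Their roles, the annotation release and the strand setting are not stated in those notes. Estimated counts, deposited with fractions in 8.05% of genes in SP and 11.3% in KSFM, were rounded. Library sizes were scaled with edgeR 4.0.16 TMM factors (1.00 in SP and 0.999 in KSFM). Each log2 ratio has an exact 95% interval (Clopper-Pearson, given the gene's summed counts). A count of 0 was set to 3 in the ratio, and no ratio was formed where the other count was 3 or less. The reads carry no stated molecular identifiers, and intervals and floors describe counting error alone. The ratio and call rule were run on simulated Poisson counts without spread between cultures. That checks the computation and not the calls made on these libraries.

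The members and gene lists were chosen with earlier results of these data known. All 182 list entries were found, 2 under older symbols. 1 listed gene is not reported here by name. Named are all members, entries of the signalling, effector, relative and neighbour lists, up to 4 of the largest called ratios in the interferon-induced lists, cell markers, and the 3 genes nearest to each of the 2 most abundant members. Outside this rule, the TNF and interleukin-1 genes and the markers below 1 CPM were chosen after their values were seen. Alternatives were scaling by upper quartile, by total count or by DESeq2 1.42.0 size factors, ratios of TPM with a pseudocount of 1 or 0.1, other filters and other fold rules; centring of TPM ratios was added after the data were seen. Computation used Python 3.11.15 (with scipy 1.17.1, pandas 2.3.3, matplotlib 3.10.9 and numpy 2.4.6) and R 4.3.3.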

Additional observations from a re-analysis of the deposited data

How the results depend on the processing

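Each of the 6 GBP genes with counts kept the direction of its ratio under every scaling tried. On TPM with a pseudocount of 1 the log2 ratio was 3.86 for GBP2, 2.71 for GBP4 and 0.51 for GBP6, and after centring 3.16 for GBP1, 3.71 for GBP2, 2.56 for GBP4 and 0.36 for GBP6, where the pseudocount exceeds the KSFM level of GBP2, GBP4 and GBP6. The TPM scale moved the all-gene median log2 ratio by 0.15 with a pseudocount of 1 and by 0.17 with 0.1. Members called higher numbered 5, or 4 with a filter of 10 CPM and on TPM with a pseudocount of 1, centred or not, where GBP6 dropped out. Genes called higher in SP numbered 1344, against 788 with a filter of 10 CPM, 408 by a 4-fold rule and 837 with an interval wholly beyond 2-fold. Genes called lower numbered 923, against 446, 162 and 395 under those settings, 349 and 605 on TPM with pseudocounts of 1 and 0.1, and 536 after centring with a pseudocount of 1. No paired analysis was possible because each medium is 1 pooled library. No replicate could be left out, and depth limits GBP6, GBP7 and the interferon ligands most.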
